A study of Mus musculus with 16 samples.

Results

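The genes described here were 10 genes that respond to the transcription factor ATF4 or belong to its circuit, the hormone gene Fgf21 among them. The genes were picked by symbol, with earlier results of these data known, and found as the rows of the deposited count table whose gene identifier maps to Atf4, Atf5, Ddit3, Trib3, Chac1, Asns, Psat1, Phgdh, Sesn2 or Fgf21. These 10 genes took 11 of the 55385 rows, since Ddit3 has a second, overlapping row that held 0 counts in every library. The samples were brown and white adipose tissue, heart, kidney, liver, lung, muscle and spleen of male wild-type mice of the C57BL/6 strain, acquired at 12 weeks of age. The fed group ate standard chow freely and the fasting group went without food for 24 h. Equal parts of a tissue from the 3 mice of a group were pooled before RNA extraction. Each tissue and treatment therefore gave 1 library, 16 in all, the 8 tissues of a treatment come from the same mice, and no value within a tissue has a replicate error.

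ATF4 is the shared effector of the integrated stress response. Kinases that sense amino acid shortage, unfolded protein, haem deficiency or viral RNA phosphorylate the initiation factor eIF2alpha, which lowers general translation but raises translation of the Atf4 mRNA, so that ATF4 protein can rise without a change in its mRNA. ATF4 pairs with other basic leucine zipper proteins and binds C/EBP-ATF response elements (CARE) at genes for amino acid synthesis, transport and stress signalling. Fgf21 encodes a hormone secreted mainly by liver that acts through FGF receptors bound to the co-receptor beta-Klotho, and it is known as a target of PPARalpha, the fatty acid sensor of the fasting liver, as well as of ATF4.

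A core CARE was searched as the letters TGATGNAA on both strands of the RefSeq promoters of GRCm38.p6, each from 250 bases before to 50 bases after the gene's start. It was found in 1304 of 32851 promoters (3.97%) and in 4 of the 10 genes, Chac1, Trib3, Asns and Fgf21. The 10 genes were picked as members of the ATF4 response, so this count is not independent of the choice. The 3.97% counts promoters, which belong to 27025 genes, whereas the 10 are counted by gene. The windows of 30 bases around the 4 matches are shown as a description. They are written 5′ to 3′ on the strand of the gene, and capitals mark the matched letters, which in Chac1, Trib3 and Fgf21 lie on the opposite strand.
Chac1: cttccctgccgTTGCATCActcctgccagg
Trib3: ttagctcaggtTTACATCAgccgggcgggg
Asns: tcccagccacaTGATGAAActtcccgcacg
Fgf21: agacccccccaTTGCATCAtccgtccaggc
The windows lie at chr2:119351038-119351067 on the plus strand for Chac1, chr2:152344028-152344057 on the minus strand for Trib3, chr6:7693214-7693243 on the minus strand for Asns and chr7:45615611-45615640 on the minus strand for Fgf21. The first matched base stood at -193 from the start for Chac1, -139 for Fgf21, -23 for Asns and 14 bases after the start for Trib3, all counted from the RefSeq starts. The gene coordinates given below are those of the GENCODE annotation, whose starts differ for Chac1, Asns and Trib3. Counted from those, the offsets are -180 for Chac1, -139 for Fgf21, 22 for Asns and -14 for Trib3. In the shorter window that ends at the RefSeq start, 3 of the 10 genes (Chac1, Asns and Fgf21) and 3.45% of promoters held the letters. The palindromic CRE (TGACGTCA), the unfolded protein element ERSE (CCAAT and CCACG with 9 bases between them) and a PPARalpha element (AGGTCA repeated after 1 base), searched the same way, were in 0 of the 10 promoters and in 1.79%, 0.119% and 0.0396% of all promoters. A match is a description of the letters, not of binding, and no match says only that these letters are not in this window.

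Library totals lay between 14245178 and 36069968 counts, so that 3 counts, the floor used here, stood for 0.0832 to 0.211 CPM, the count as a share of the library total on the usual scale. Markers of the labelled tissues were highest in their own tissue, but several tissues also held genes of other cells at unequal levels in the fed and the fasting library. For marker genes, counts of higher and lower are counts of genes called by the rule given below. The shares of all genes called in each tissue are given there too. In white adipose, 14 genes of motile cilia summed to 21.2 CPM in the fed and 1313 CPM in the fasting library, with all 14 higher and none at 0, and 10 epithelial genes summed to 26.2 and 731 CPM. The 18 genes of pancreatic acinar cells summed to 139 and 319 CPM in the fed and fasting liver, with 15 higher and none at 0, and to 732 and 13.6 CPM in the spleen, with 17 lower and Try4 and Sycn at 0 in the fasting library. In brown adipose, 10 genes of skeletal muscle fibres summed to 3104 and 1381 CPM, with all 10 lower and none at 0. Lung had 8 B cell genes at 448 and 232 CPM, all 8 lower, and 7 cardiomyocyte genes at 1200 and 636 CPM, with 6 lower, and none of either list at 0. In heart 10 hepatocyte genes summed to 42.9 and 114 CPM, with 9 higher and none at 0. In muscle 5 of 8 adipocyte genes were lower, with sums of 235 and 213 CPM and none at 0. In kidney 2 of 10 hepatocyte genes were higher and 6 lower, with sums of 4308 and 10078 CPM and none at 0. The part of these genes in the results on the same tissues was not tested, and in pooled bulk tissue fewer cells of a type and less RNA per cell cannot be told apart.

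Fgf21 aside, whose fed level was 0 in muscle and kidney, fed levels varied between tissues least for Atf4 and most for the enzymes of serine synthesis. Per unit of gene length, Atf4 had the highest median over the 8 fed libraries, at 129 TPM (the count per base of the gene, scaled alike in every library), with a range from 92.5 to 223 TPM. The median fed TPM was 41.3 for Atf5, 18.1 for Ddit3, 14.8 for Sesn2, 12.9 for Phgdh, 5.3 for Psat1, 5.13 for Asns, 4.78 for Chac1, 3.04 for Trib3 and 0.385 for Fgf21. Between fed tissues, the CPM of Atf4 differed by a factor of at most 2.04, whereas that of Phgdh differed by 402, Psat1 by 145, Asns by 80.0 and Chac1 by 61.1. On the CPM scale, white adipose had the highest fed level of Phgdh, Psat1 and Asns, muscle that of Atf4 and Chac1, liver that of Atf5 and Fgf21, brown adipose that of Ddit3 and Trib3, and kidney that of Sesn2. Per length, Trib3 at 11.4 TPM and Sesn2 at 42.3 TPM were highest in fed white adipose instead, beside 11.1 TPM in brown adipose and 40.4 TPM in kidney. With 1 library per tissue and treatment, neighbours in these orders could not be tested.

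**Figure D1:**
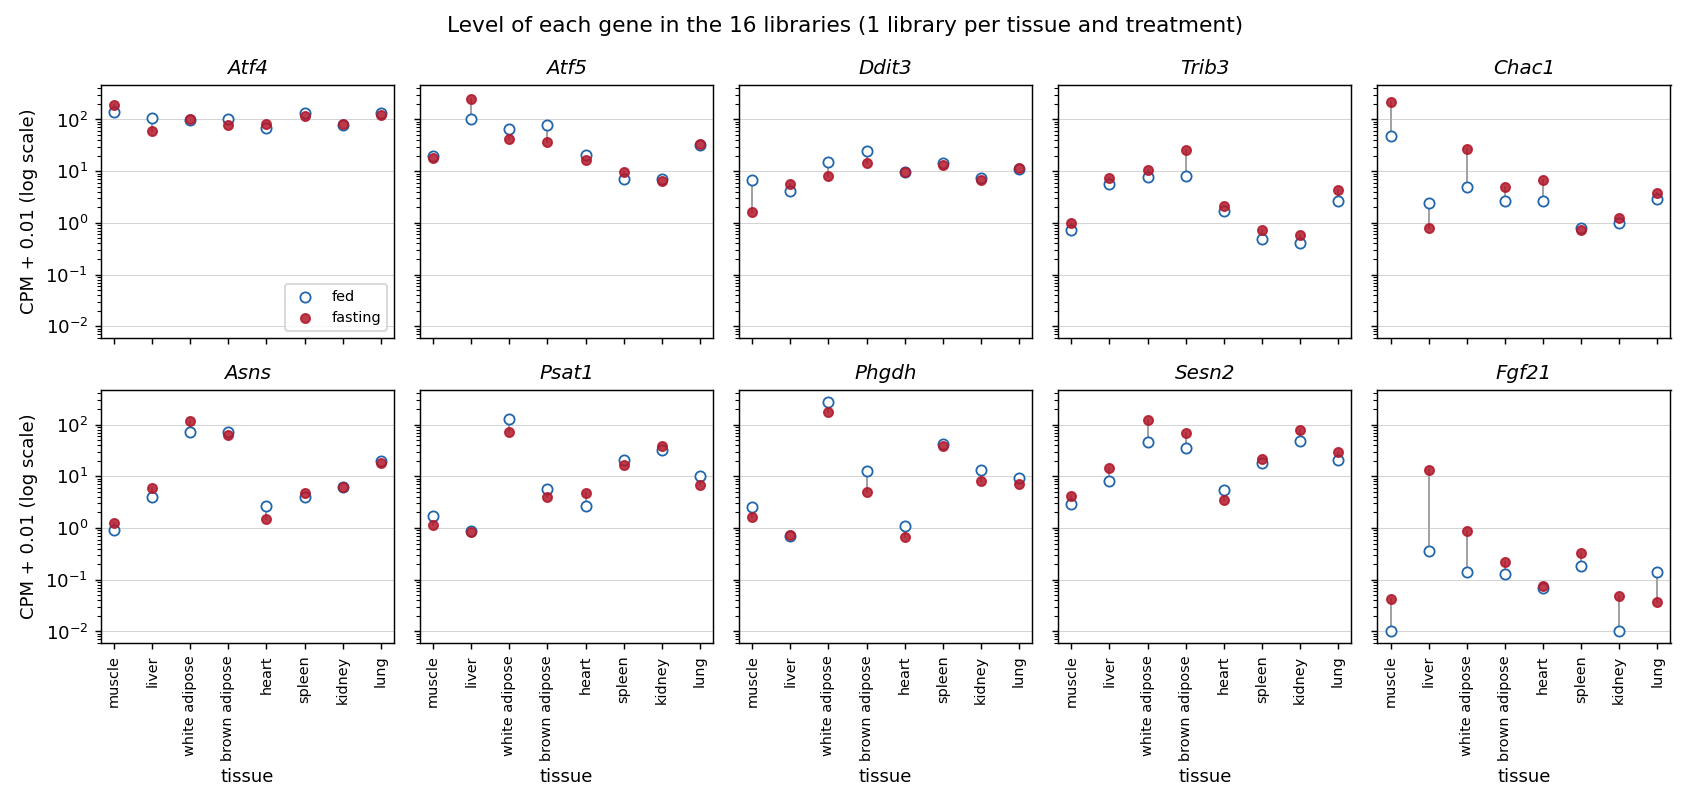
Level of each of the 10 genes in the 16 libraries, as CPM with 0.01 added on a log axis. Open circles are fed and filled circles fasting libraries, 1 each per tissue, joined by a line. Atf4 stayed between 58.8 and 191 CPM in all 16 libraries, and Fgf21 passed 1 CPM in the fasting liver alone, at 13 CPM.

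The first question was which of these genes differed between both libraries of a tissue. A gene was called where the log2 fold change on CPM with 0.01 CPM added exceeded 0.5 in size and Fisher's exact test (two-sided) on the counts gave an unadjusted p under 0.01. Such a call, for which "rose" and "fell" are used below, compares 2 libraries and not the conditions, and the 95% intervals cover counting error only. Over the 80 pairs of gene and tissue, 16 rose, 12 fell and 52 were not called. In an exact test in edgeR, 16 of these calls were lost at an assumed coefficient of variation of 0.2 and 26 at 0.4. Among all genes at 1 CPM or more in 1 library, 7.93% of pairs rose and 9.94% fell, and of the 68 of the 80 pairs that passed that level 15 rose and 12 fell, the call outside it being Fgf21 in white adipose. Changes above 1 on the log2 scale were made up of 8 rises and 4 falls.

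By tissue, the calls were most frequent in liver and both adipose tissues. In liver 4 genes rose and 2 fell, against 7.34% and 15.8% of all genes at 1 CPM or more. White adipose had 4 rises and 4 falls, where 19.8% of all such genes rose and 9.23% fell. Brown adipose had 3 of each, against 8.68% and 12.2%. The heart had 2 rises and 0 falls, against 7.01% and 9.65%. Muscle had 1 rise and 1 fall beside 7.80% and 16.4%, kidney 1 of each beside 4.48% and 6.23%, and lung 1 of each beside 4.23% and 10.1%. In spleen 0 of the 10 genes were called by Fisher's exact test, against 3.62% and 2.33% of all genes. Without white adipose the counts over all pairs were 12 rises and 8 falls, without liver 12 and 10, without spleen 16 and 12, and without all 3 of them 8 and 6.

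For the 9 genes other than Fgf21, the median log2 fold change lay near that of all genes in most tissues. It was 0.45 in muscle and 0.40 in liver, where the median of all genes at 1 CPM or more was -0.14 and -0.13. It was 0.07 in white adipose, equal to that of all genes, and -0.39 in brown adipose, where all genes stood at -0.03. In heart, spleen, kidney and lung it lay between -0.08 and 0.04.

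**Figure D2:**
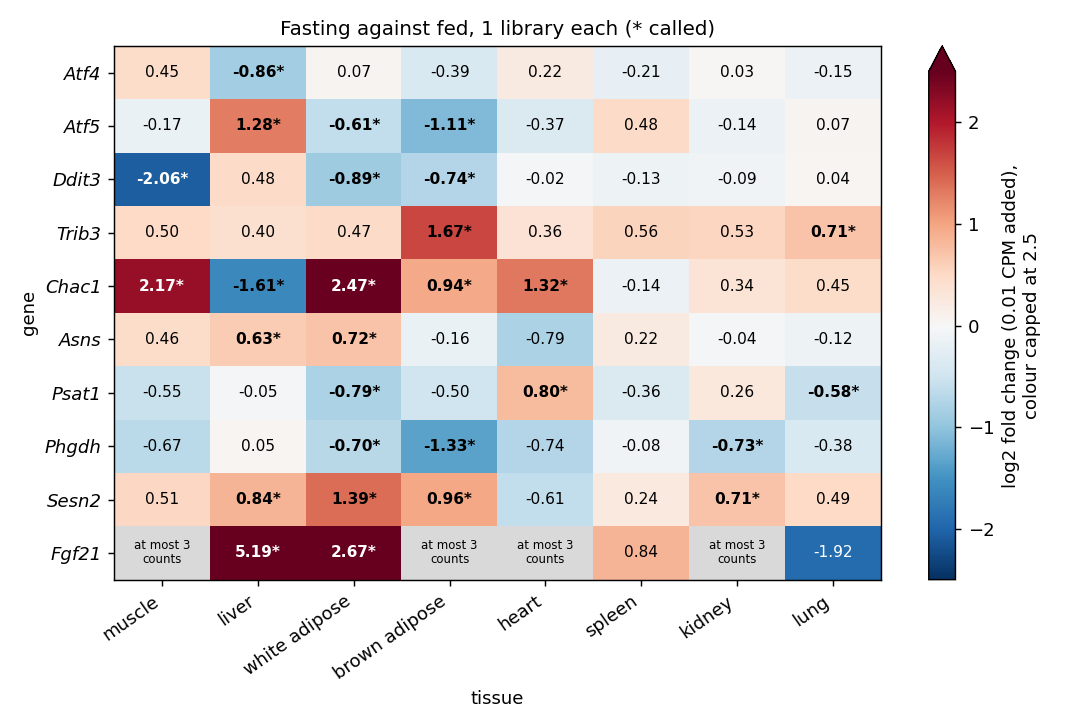
Log2 fold change of the 10 genes (rows) of the fasting over the fed library in 8 tissues (columns), with 0.01 CPM added and colour capped at 2.5. Bold values with an asterisk were called, and grey cells held at most 3 counts in both libraries. The values run from -2.06 for Ddit3 in muscle to 5.19 for Fgf21 in liver, and Trib3 is above 0 in all 8 tissues.

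Among the transcription factors, Atf4 itself (ENSMUSG00000042406.8, chr15:80255184-80257541, plus strand, GRCm38) was called in liver alone with library totals. Liver had a fall from 106 to 58.8 CPM on fasting, which is -0.86 on the log2 scale (interval -0.95 to -0.76). In muscle it was 140 CPM fed and 191 CPM fasting, a change of 0.45 that was not called, but which reached 0.52 and was called with TMM or DESeq2 size factors. In the other 6 tissues the change lay between -0.39 in brown adipose and 0.22 in heart and none was called. The fed levels there were 98.4 CPM in white adipose, 101 in brown adipose, 68.9 in heart, 134 in spleen, 79.7 in kidney and 136 in lung, and the fasting levels were 104, 76.7, 80.3, 115, 81.2 and 123 CPM.

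Atf5, a close relative of ATF4 whose mRNA is also under translational control, moved in opposite directions in liver and the adipose tissues. It rose in liver from 103 to 250 CPM, a log2 fold change of 1.28 (1.21 to 1.35). It fell in brown adipose from 78.5 to 36.4 CPM, a change of -1.11 (-1.26 to -0.96), and in white adipose from 64.7 to 42.4 CPM, a change of -0.61 (-0.72 to -0.50). Liver was thus the tissue in which Atf4 fell and Atf5 rose. In muscle, heart, spleen, kidney and lung Atf5 lay between 6.36 and 33.3 CPM with changes from -0.37 to 0.48, none of them called. The gene (ENSMUSG00000038539.15, chr7:44812256-44816658, minus strand) shares 82 exonic bases with Nup62 and with Il4i1 on the other strand, and the strand setting of the counting was not stated.

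Ddit3 encodes CHOP, a bZIP factor that ATF4 induces in prolonged stress, and it rose in 0 of the 8 tissues by the same Fisher test. It fell in muscle from 6.77 to 1.62 CPM, or from 163 to 50 counts, a log2 fold change of -2.06, while the same libraries held a rise of Chac1. It also fell in white adipose from 15.2 to 8.20 CPM (-0.89) and in brown adipose from 24.6 to 14.7 CPM (-0.74). In liver it was 4.12 CPM fed and 5.77 CPM fasting, a change of 0.48 that was called only with TMM or DESeq2 size factors. In heart, spleen, kidney and lung the changes lay between -0.13 and 0.04. The exons of Ddit3 (ENSMUSG00000025408.15, chr10:127290774-127296288, plus strand) overlap 68 bases of Mars and 13 of Gm4189 on the other strand and 105 of the second Ddit3 row.

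Trib3, a pseudokinase induced by ATF4 and CHOP that restrains both ATF4 and AKT, was higher in the fasting library of all 8 tissues. The rise was largest in brown adipose, from 8.01 to 25.6 CPM or 133 to 364 counts, a log2 fold change of 1.67 (1.38 to 1.97). Lung was the other tissue with a call, from 2.69 to 4.41 CPM, a change of 0.71 (0.32 to 1.11). In the same lung libraries 8 adipocyte genes summed to 179 and 302 CPM, with 5 higher, 1 lower and none at 0, and their part in this value was not tested. The fed and fasting levels were 0.706 and 1 CPM in muscle, 5.56 and 7.33 in liver, 7.69 and 10.7 in white adipose, 1.68 and 2.16 in heart, 0.486 and 0.719 in spleen, and 0.401 and 0.582 in kidney. These 6 changes lay between 0.36 and 0.56, and 4 of them rest on 9 to 33 counts per library, at which a change of this size was not detectable by the test used. Trib3 (ENSMUSG00000032715.9) lies at chr2:152337422-152344032 on the minus strand.

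Chac1, which encodes an enzyme that breaks down glutathione, had both the largest rises apart from Fgf21 and a fall. In muscle it rose from 48.6 to 219 CPM, or from 1170 to 6774 counts, a log2 fold change of 2.17 (2.08 to 2.26). In white adipose it rose from 4.94 to 27.3 CPM, a change of 2.47 (2.18 to 2.77), in the library in which the genes of motile cilia also rose. The part of those cells in this value was not tested.

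Chac1 also rose in heart from 2.67 to 6.68 CPM (log2 fold change 1.32). In the heart libraries 6 of the 10 skeletal muscle fibre genes were called higher, 0 were called lower and 4 were not called. Their sums were 2392 and 2331 CPM with none at 0, and their part in the heart value of Chac1 was not tested. Chac1 rose as well in brown adipose from 2.59 to 4.98 CPM (0.94), where the skeletal muscle genes fell. In liver it fell from 2.47 to 0.801 CPM, or from 57 to 20 counts, a change of -1.61 (-2.44 to -0.87). The levels in spleen, kidney and lung lay between 0.719 and 3.85 CPM with changes from -0.14 to 0.45 and no call, although lung reached 0.52 and was called with TMM or DESeq2 size factors. Thus fasting muscle held the highest level of all 16 libraries and the spleen pair the lowest fed level. Chac1 (ENSMUSG00000027313.3) lies at chr2:119351229-119354381 on the plus strand.

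**Figure D3:**
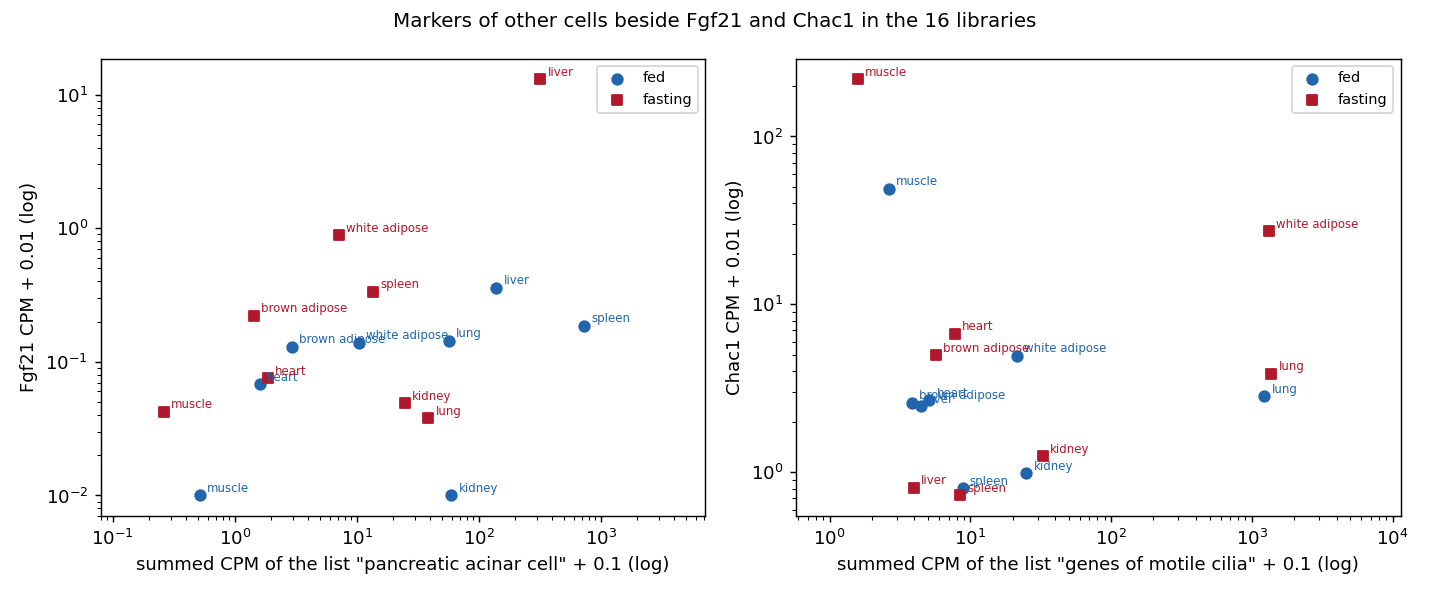
Summed CPM of marker genes of other cells (x axis, 0.1 added, log scale) beside Fgf21 and Chac1 (y axes, CPM with 0.01 added, log scale) in the 16 libraries, fed as circles and fasting as squares. On the left the fed spleen had the highest acinar sum, 732 CPM, with 0.177 CPM of Fgf21, and the fasting liver had 319 CPM with 13 CPM of Fgf21. On the right the fasting white adipose library and both lung libraries had cilia sums above 1000 CPM, and Chac1 was highest in muscle.

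Sesn2 encodes Sestrin2, a leucine sensor that restrains the growth kinase complex mTORC1, and its changes were above 0 in 7 of 8 tissues. White adipose rose from 46.5 to 122 CPM, a log2 fold change of 1.39 (1.29 to 1.49). Brown adipose rose from 35.6 to 69.1 CPM (0.96), liver from 8.12 to 14.6 CPM (0.84) and kidney from 48.7 to 79.7 CPM (0.71). Muscle, at 2.87 and 4.07 CPM, and lung, at 20.6 and 28.9 CPM, had changes of 0.51 and 0.49 that were called with TMM factors or DESeq2 size factors and not with library totals. Spleen was 18.5 CPM fed and 21.9 CPM fasting, and heart ran the other way at 5.40 and 3.54 CPM, a change of -0.61 on 93 and 54 counts that was not called. Sesn2 (ENSMUSG00000028893.8) lies at chr4:132492032-132510501 on the minus strand.

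The 3 enzymes of amino acid synthesis divided in white adipose, where all 3 had their highest levels. Asns, the asparagine synthetase, rose there from 73.1 to 120 CPM, a log2 fold change of 0.72 (0.63 to 0.80). Phgdh, which catalyses the first step of serine synthesis from a glycolytic intermediate, fell from 279 to 172 CPM, a change of -0.70 (-0.75 to -0.64). Psat1, which catalyses the next step, fell from 126 to 72.7 CPM, a change of -0.79 (-0.88 to -0.71). In the same libraries 8 B cell genes summed to 351 and 86.8 CPM, with Ighm and Cd79a lower, 6 not called and none at 0, and their part in these values was not tested.

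Outside white adipose, Asns rose in liver from 3.91 to 6.05 CPM, a log2 fold change of 0.63 (0.24 to 1.02). It was at 71.9 and 64.4 CPM in brown adipose, and in the other 5 tissues its levels lay between 0.914 and 19.4 CPM with changes from -0.79 in heart to 0.46 in muscle, none called. Phgdh fell also in brown adipose, from 12.8 to 5.05 CPM (-1.33), and in kidney, from 13.3 to 8.03 CPM (-0.73). Its changes were below 0 in 7 of 8 tissues, and in liver it was at 0.695 and 0.721 CPM, or 16 and 18 counts. Psat1 fell in lung from 10 to 6.71 CPM (-0.58), where the B cell and cardiomyocyte genes were lower too, and rose in heart from 2.67 to 4.65 CPM, or 46 to 71 counts (0.80), where the hepatocyte genes were higher. The part of those cells in both changes of Psat1 was not tested. In liver Psat1 itself was at 0.868 CPM fed and 0.841 CPM fasting. With Benjamini-Hochberg adjustment, the heart call of Psat1 did not pass Fisher's exact test at 0.01. The spleen pair, at 41.4 and 39.3 CPM for Phgdh and 21.1 and 16.4 CPM for Psat1, was not called for either gene. In GRCm38, Asns (ENSMUSG00000029752.12) lies at chr6:7675169-7693254, Psat1 (ENSMUSG00000024640.9) at chr19:15904678-15947337 and Phgdh (ENSMUSG00000053398.11) at chr3:98313170-98339990, all on the minus strand.

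Fgf21 (ENSMUSG00000030827.5, chr7:45613886-45615490, minus strand) reached 1 CPM in the fasting liver alone. It had 8 counts in the fed and 325 counts in the fasting liver, or 0.347 and 13 CPM, a log2 fold change of 5.19 and a ratio of 37.5 (18.8 to 87.6). White adipose held 3 counts fed and 24 counts fasting, a ratio of 6.79 (2.06 to 35.2), and stayed under 1 CPM in both libraries. In the other tissues it had 4 and 9 counts in spleen, 4 and 1 in lung, 2 and 3 in brown adipose, 1 and 1 in heart, 0 and 1 in muscle, and 0 and 1 in kidney, fed and fasting in that order. No fold is given for muscle, brown adipose, heart and kidney, where both libraries were at or under 3 counts, and a difference there was not detectable at this depth. The sum of the acinar genes went from 139 to 319 CPM in the liver pair, in which Fgf21 rose, and from 732 to 13.6 CPM in the spleen pair. The sum of 7 pancreatic islet genes went from 6.34 to 0.801 CPM in the liver pair, with 3 lower, 0 higher and Pyy at 0 in both libraries. The part of pancreatic cells in these values was not tested.

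The FGF receptors and both Klotho co-receptors were measured beside it. Klb, the co-receptor beta-Klotho that gives tissues their response to the hormone, was 53.7 and 53.3 CPM in the fed and fasting liver and 109 and 105 CPM in brown adipose. In white adipose Klb rose from 93.5 to 133 CPM, a log2 fold change of 0.51 that was 0.40 and not called with TMM factors, and in the 5 other tissues it stayed under 1 CPM. Fgfr1, the receptor that FGF21 uses in adipose tissue, was 385 and 276 CPM in white adipose and 126 and 121 CPM in brown adipose, and it rose in muscle from 94.0 to 149 CPM. It was not called in either adipose tissue with library totals, but in white adipose its change of -0.48 became -0.59 and was called with TMM factors. In liver Fgfr3 fell from 45.8 to 21.2 CPM and Fgfr4 from 34.1 to 21.0 CPM, and Fgfr2 fell with library totals but not with TMM factors. Fgfr3 rose in 4 other tissues, in heart from 7.78 to 15.7 CPM. In white adipose 5 of these 6 genes rose, against 19.8% of all genes, or 4 with TMM factors. Fgfr4 went there from 0.472 to 20.8 CPM and Kl, the co-receptor for FGF23 and not for FGF21, from 1.63 to 24.8 CPM, in the library in which the sum of the 10 epithelial genes went from 26.2 to 731 CPM. Of 8 kidney tubule markers 2 rose there, Lrp2 from 34.9 to 710 CPM and Umod from 4.38 to 9.04 CPM, with none at 0 and a median change of 0.38. The part of those cells in these values was not tested. In kidney, where Kl was highest, Kl fell from 942 to 578 CPM and Fgfr4 from 32.7 to 20.7 CPM. Across tissues 0 of these 6 genes, Kl included, passed in edgeR, 0 at an unadjusted p under 0.05 and 0 in DESeq2.

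The second question was which of these genes differed between fasting and fed over the 8 tissues together. All 16 libraries were fitted in 1 model of tissue and treatment with edgeR's quasi-likelihood test, in which 17296 genes were tested, 400 were higher (2.31%) and 359 lower (2.08%) at a Benjamini-Hochberg adjusted p under 0.05. The tissues stand as replicates here but come from the same 2 pools of mice, so that a difference between the pools and a difference between the treatments cannot be told apart. Of the 10 genes 9 were tested, Fgf21 being left out by the filter on low counts, and 2 passed, both higher. Trib3 was 0.73 ± 0.16 (SE, 8 tissues) higher on the log2 scale, with an edgeR adjusted p of 0.0373 and the same direction in 8 of 8 tissues. Sesn2 was 0.65 ± 0.16 higher, with an edgeR adjusted p of 0.0494 and the same direction in 7 of 8 tissues. This call was lost in edgeR with total counts (adjusted p 0.0608), DESeq2 size factors (0.0511) and robust dispersion (0.0516).

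The remaining genes did not pass in edgeR. Phgdh, with a log2 fold change of -0.56 ± 0.14 and lower in 7 of 8 tissues, had an adjusted p of 0.0522. Chac1 had the largest change, 1.06 ± 0.38, with an adjusted p of 0.126, and was lower in liver and spleen. Ddit3 stood at -0.36 ± 0.24, Psat1 at -0.22 ± 0.17, Asns at 0.18 ± 0.14, Atf4 at -0.06 ± 0.12 and Atf5 at -0.04 ± 0.23, with adjusted p from 0.381 to 0.944. Leaving out single tissues ended most of the calls of Trib3 and Sesn2. The edgeR estimates then lay between 0.55 and 0.82 for Trib3 and between 0.56 and 0.78 for Sesn2. Over all genes the calls went from 759 to between 156 and 721. Trib3 passed without white adipose alone (adjusted p 0.0433) and Sesn2 without heart alone (0.026), and with each other tissue left out the edgeR adjusted p lay between 0.0508 and 0.081 for Trib3 and between 0.0562 and 0.127 for Sesn2. Chac1 passed without liver (0.0444) and Phgdh without spleen (0.0375).

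**Figure D4:**
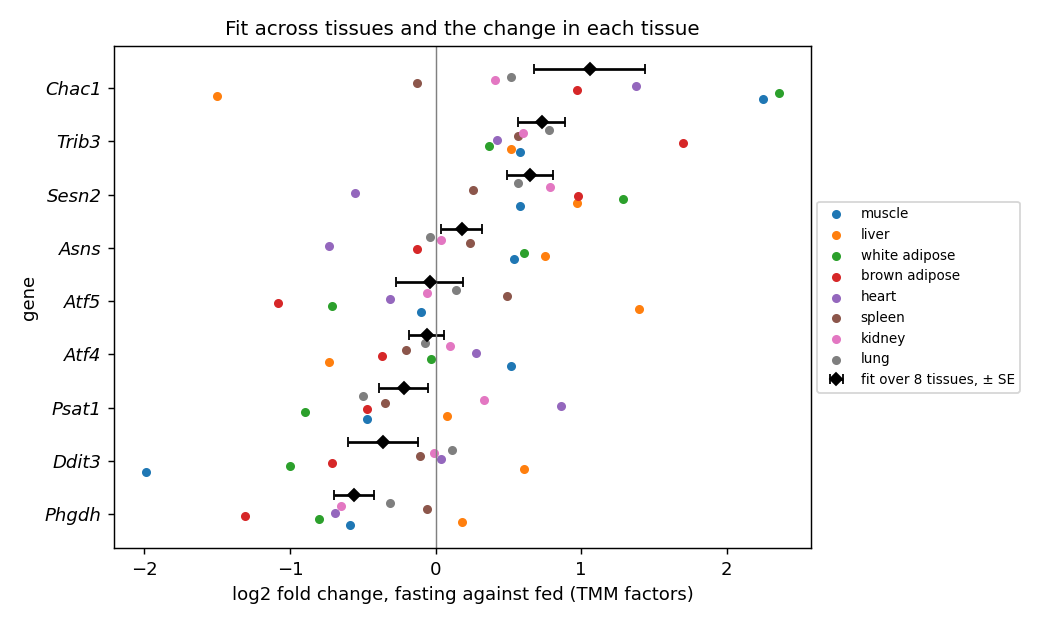
Log2 fold change between fasting and fed (x axis, TMM factors) of the 9 genes tested across tissues. Coloured points are the 8 tissues, 1 pair of libraries each, and diamonds with bars are the edgeR estimate ± SE. The 8 points of Trib3 lie above 0 and those of Chac1 on both sides, with liver lowest.

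The genes upstream of ATF4 were read beside all genes, of which 2.31% were higher and 2.08% lower across tissues in edgeR. Of the 4 eIF2alpha kinases, which start the response, 0 passed the edgeR fit across tissues (1 at an unadjusted p under 0.05, and 1, lower, in DESeq2). Eif2ak2, the RNA-activated kinase PKR, was at -0.31 ± 0.08 in edgeR with an adjusted p of 0.0532. Its change was above 0 in 0 of 8 tissues. Within tissues Eif2ak4, the kinase GCN2 that senses uncharged tRNA, rose in muscle from 11.1 to 17.2 CPM and fell in liver from 20.3 to 13.9 CPM. Eif2ak2 fell in muscle and brown adipose. With TMM factors the falls of Eif2ak4 in liver and of Eif2ak2 in brown adipose were not called. Among all genes at 1 CPM or more in 1 library, 7.80% rose and 16.4% fell in muscle. Falls made up 15.8% in liver and 12.2% in brown adipose. Of 11 genes for eIF2, eIF2B and the regulators of eIF2alpha phosphatase, 0 passed across tissues in edgeR (2 at an unadjusted p under 0.05, and 0 in DESeq2). Ppp1r15a, which encodes the phosphatase subunit GADD34 that ends the response, nevertheless rose in muscle from 20.1 to 80.9 CPM (log2 fold change 2.01), in heart from 23.8 to 56.0 CPM (1.24) and in white adipose from 14.6 to 30.2 CPM (1.05). Its edgeR estimate across tissues was 0.62 ± 0.24 with an adjusted p of 0.154. Of the 11 genes 2 rose in muscle, 1 in heart and 1 in white adipose, against 7.80%, 7.01% and 19.8% of all genes.

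Of 9 partners of ATF4 and related bZIP or stress genes, 3 were higher across tissues and 0 lower, against 2.31% and 2.08% of all genes. Ddit4, an inhibitor of mTORC1, rose in 8 of 8 tissues, in muscle from 4.65 to 164 CPM, with an edgeR estimate of 2.53 ± 0.40 and an adjusted p of 0.0131. Cebpd also rose in 8 of 8 tissues, with 10.8 and 203 CPM in muscle and an edgeR estimate of 1.75 ± 0.35 (adjusted p 0.0278). Jdp2, a repressor of the bZIP family, was 0.57 ± 0.10 higher (adjusted p 0.0159) and rose in 4 tissues. Cebpb, the partner of ATF4 on many CARE sites, rose in muscle, liver, heart and kidney, in liver from 39.6 to 80.0 CPM, with an edgeR adjusted p of 0.061 across tissues. Atf3 rose in heart from 7.20 to 21.7 CPM and fell in lung from 17.9 to 6.57 CPM and in spleen from 4.86 to 2.26 CPM.

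The lists of ATF4 targets in amino acid metabolism showed no common direction. Of 19 genes, 18 aminoacyl-tRNA synthetases, which charge tRNAs, and the tRNA exporter Xpot, 0 passed the edgeR test across tissues (3 at an unadjusted p under 0.05, and 1 in DESeq2), and their median change within a tissue lay between -0.12 and 0.17. In liver 3 of the 19 fell, Cars from 37.7 to 11.9 CPM, Tars from 210 to 117 CPM and Yars from 30.8 to 20.4 CPM, against 15.8% of all genes, and with TMM factors Yars was not called. Of 14 genes of serine, glycine, one-carbon and proline synthesis, 0 were higher and 1 lower across tissues, against 2.31% and 2.08% of all genes. The lower gene was Aldh18a1 of proline synthesis, at -0.53 ± 0.12 with an edgeR adjusted p of 0.0359. It fell in 5 tissues (4 with TMM factors, muscle being lost). Psph, the last enzyme of serine synthesis, fell in white adipose from 15.4 to 5.14 CPM, in brown adipose from 20.4 to 10.1 CPM and in muscle from 8.22 to 4.69 CPM. In liver the transaminases Got1 and Gpt2 rose from 156 to 717 CPM and from 384 to 1143 CPM, and Cth, which makes cysteine, rose from 317 to 821 CPM.

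Of 9 amino acid transporters linked to ATF4, 8 were tested across tissues and 0 passed in edgeR (3 at an unadjusted p under 0.05, and 1 in DESeq2). In white adipose Slc7a5, the large neutral amino acid carrier, rose from 6.05 to 18.0 CPM, and Slc1a5, the glutamine carrier, fell from 1887 to 784 CPM. Brown adipose had Slc1a5 at 700 and 325 CPM, a fall, and Slc3a2, the partner chain of Slc7a5, rising from 37.2 to 70.6 CPM. Slc1a4 rose in 1 tissue and fell in 4, in liver from 7.16 to 1.44 CPM and in kidney from 49.3 to 29.7 CPM.

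Relatives of the 10 genes did not follow them in every case. Sesn1, the sestrin regulated by FoxO and p53, rose in 6 tissues (5 with TMM factors, white adipose being lost), in muscle from 20.3 to 159 CPM, while Sesn3 fell in liver, lung and both adipose tissues. Chac2, the constitutive relative of Chac1, fell in muscle from 10.9 to 6.21 CPM, where Chac1 rose, and in liver from 22.4 to 11.7 CPM. Trib1 fell in brown adipose from 66.7 to 32.4 CPM, where Trib3 rose. Of the 6 genes of this list that were tested, 5 paralogs and the stress hormone gene Gdf15, 0 passed the edgeR fit across tissues (3 at an unadjusted p under 0.05, and 3 in DESeq2), which for Sesn1 gave 0.87 ± 0.29 and an adjusted p of 0.104.

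The other known input to Fgf21 and the neighbouring branch of the stress response were read from 2 further lists. All 12 PPARalpha target genes rose in liver, against 7.34% of all genes, and all 12 in kidney, against 4.48%. Of the 12, 8 rose in each of white adipose, brown adipose and heart, against 19.8%, 8.68% and 7.01% of all genes. Rises numbered 7 in spleen, 6 in muscle and 5 in lung, against 3.62%, 7.80% and 4.23%. None of the 12 fell in any tissue. In liver Cpt1a, which admits fatty acids to mitochondria, rose from 356 to 1439 CPM and Cyp4a14 from 491 to 8253 CPM, and in kidney Cyp4a14 rose from 10.9 to 1354 CPM. Across tissues 7 of the 12 were higher in edgeR and 0 lower, against 2.31% and 2.08% of all genes. Pdk4 stood at 3.05 ± 0.44 (edgeR adjusted p 0.00943). Of 14 chaperones and related genes of the endoplasmic reticulum, 2 were higher and 2 lower across tissues, beside the same shares of all genes. Higher were Herpud1 at 0.96 ± 0.17 (edgeR adjusted p 0.0177) and Dnajb9 at 0.50 ± 0.09 (0.0227). Lower were Sdf2l1 at -0.99 ± 0.19 (0.0259) and Calr at -0.38 ± 0.09 (0.0472). In heart 8 of the 14 fell, Hspa5 from 769 to 323 CPM, against 9.65% of all genes. Of 7 cardiomyocyte genes 2 fell in the same libraries, Actc1 from 10124 to 5489 CPM and Myl7 from 14.5 to 0.918 CPM. The other 5 were not called, and the part of these cells in the heart values was not tested.

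**Figure D5:**
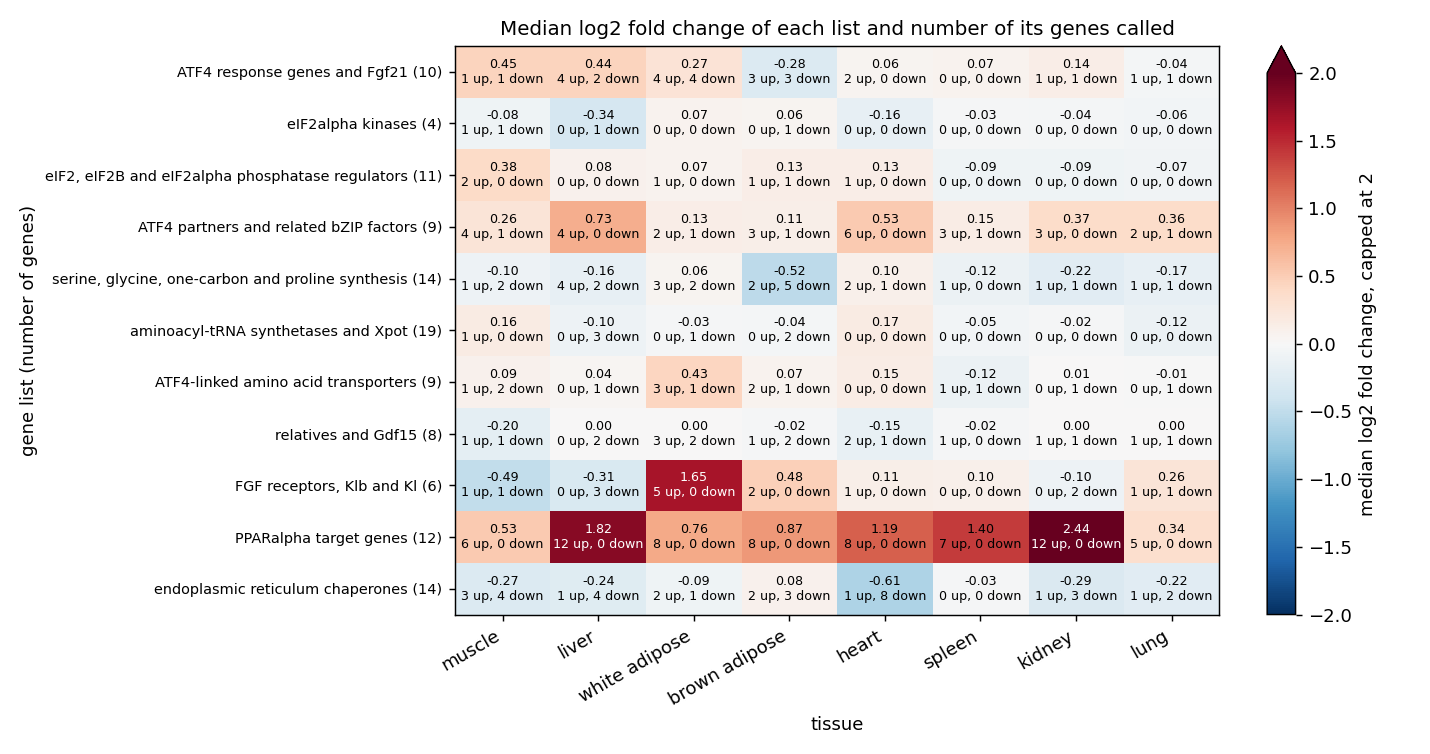
Median log2 fold change, fasting against fed, of the 10 genes (top row) and of 10 gene lists in 8 tissues, with the number of genes called up and down printed in each cell and the colour capped at 2. The PPARalpha target genes had the highest medians in liver (1.82) and kidney (2.44), and the list of aminoacyl-tRNA synthetases and Xpot lay between -0.12 and 0.17.

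The genes whose changes over the 8 tissues were most like those of Trib3, Asns and Atf4 were found by Pearson's r among 3590 genes, on CPM with 1 added. The 8 points share the 2 pools of mice, so r is a description. None are named for Fgf21, which reached 1 CPM in 1 library alone. For Trib3 they were Tbc1d20 (0.97), Scd3, Pck2 and Cyp2b10 (0.96) and Rasal2 (0.93), all with their largest change in brown adipose. Pck2, the mitochondrial phosphoenolpyruvate carboxykinase, was at 1.53 there. Pck2 and Rasal2 were, like Trib3, above 0 in 8 of 8 tissues, and both were picked for their likeness to Trib3. For Atf4 they were Pdk4 (0.95), Lss and Cyp27a1 (0.94), Phlda1 (0.93) and Pstpip2 (0.92), all with their lowest change in liver. Those of Asns were Dact3 (0.92), Cx3cr1 and Tuba8 (0.90) and Kcnq1 and Arhgef19 (0.89). With Spearman's correlation 0 of the 5 genes remained for Trib3 and Asns and 3 for Atf4, and with TMM factors 3 for Asns and 4 for Trib3 and Atf4.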

How the data were processed

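RNA-Seq of 8 tissues under 2 treatments was analysed. The libraries were strand-specific per the labels. The authors used fastp 0.23.2 for trimming and FastQC 0.11.8 for quality. Alignment to GRCm38 was by HISAT2 2.2.1.0, and reads were assigned to GENCODE M24 genes by featureCounts (Subread 2.0). Whether the counting used strand is not given in the sources used here. The authors deposited raw counts per gene and library, with gene lengths (an other value). Everything else was computed from these deposited counts.

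Identifiers were matched, without version, to GENCODE M21 symbols for 55144 of 55385 genes. Counts were divided by library totals (CPM) and, for TPM, by the deposited lengths. Within tissues, Fisher's exact test on the counts of 1 fed and 1 fasting library was called as stated in the results, after the study's rule. Intervals of ratios are exact (Clopper-Pearson) and cover counting error only. Across tissues, edgeR 4.0.16 (R 4.3.3) fitted terms for tissue and for treatment (quasi-likelihood test, TMM factors, genes kept by filterByExpr), leaving 7 residual degrees of freedom. The alternatives used DESeq2 1.42.0, other scalings, filters and thresholds, an exact test in edgeR at a preset coefficient of variation, and single tissues left out. Both steps were tested on simulated data. Figures were drawn with matplotlib 3.10.9, and other steps used scipy 1.17.1, pandas 2.3.3 and numpy 2.4.6 in Python 3.11.15.

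The 10 genes, the pathway lists and the marker lists were chosen with earlier results of these data known, and the lists of cilia and epithelial genes after the counts were seen. From each list the text names up to 4 called genes per tissue with the largest change among those at 5 CPM or more in 1 library, and up to 2 uncalled genes with the highest CPM. A few, such as Fgfr4, Kl, Jdp2 and Trib1, were named outside this rule after their values were seen. The most similar genes were the 5 with the highest r among genes at 5 CPM or more in 1 library and a change of 1 or more in 1 tissue.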

Additional observations from a re-analysis of the deposited data

Results flagged for a closer look

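Atf5, Chac1 and Psat1 were each called up in some tissues and down in others. The difference between the tissues was not tested, since each tissue has 1 fed and 1 fasting library. The log2 fold change of Atf5 was 1.28 in liver and -1.11 in brown adipose. That of Chac1 was 2.47 in white adipose and -1.61 in liver. Psat1 stood at 0.80 in heart, on 46 and 71 counts, and at -0.79 in white adipose. Its call in heart was lost when Fisher's exact test was read at a Benjamini-Hochberg adjusted p under 0.01.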

How the results depend on the processing

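The counts of 16 rises and 12 falls within tissues became 8 and 4 with a log2 fold change above 1, 8 and 4 with an exact test in edgeR at an assumed coefficient of variation of 0.2, and 2 and 0 at 0.4. Without white adipose, liver and spleen, a setting chosen after seeing the data, they were 8 and 6. TMM factors and DESeq2 size factors gave 22 and 12 each, adding Atf4 and Sesn2 in muscle, Ddit3 and Trib3 in liver, and Chac1 and Sesn2 in lung. The ratio of TMM factors moved log2 fold changes by -0.11 in white adipose, 0.12 in liver and at most 0.08 elsewhere, and by more for Fgf21 where it had few counts, as in muscle. A pseudocount of 1 CPM and library totals without the 10 highest genes left 16 and 12, an adjusted p under 0.01 ended the call of Psat1 in heart, and none of these settings reversed a called change. The 2 genes called across tissues became 1 with DESeq2 size factors, 1 with robust dispersion, 0 without a tissue block, 0 to 1 with 1 tissue left out (Trib3 without white adipose, Sesn2 without heart, Chac1 without liver and Phgdh without spleen) and 0 without white adipose, liver and spleen. With total counts alone the 2 genes were Trib3 and Phgdh, and Sesn2 had an adjusted p of 0.0608. Counts were 3 with the DESeq2 Wald test and with no filter, where Phgdh joined and Fgf21 was 2.46 higher with an edgeR adjusted p of 0.101. The fit across tissues compares fed and fasting within each tissue, so that its tissue term is already the pairing. The labels give no replicate numbers, and within a tissue there is 1 library per treatment.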
